A study of Mus musculus with 6 samples.

Results

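Heat shock and endoplasmic reticulum (ER) protein folding genes were followed in sorted long-term haematopoietic stem cells (LT-HSCs), which sustain blood formation over a lifetime. The set holds 38 of the 21761 genes in the deposited count table. It was listed by gene symbol, from the main cytosolic, mitochondrial and ER chaperones and the factors that control them, and all 38 were found. The libraries came from 2 genotypes. IMP1 libraries (n = 3) were made from donor cells of genotype Rosa26 I/+;Mx1-Cre tg/+, in which a conditional knock-in at Rosa26 allows the RNA-binding protein IMP1, encoded by Igf2bp1, to be expressed again in adult cells. Control libraries (n = 3) were made from donor cells of genotype Rosa26 +/+;Mx1-Cre tg/+. Both genotypes therefore carried the Mx1-Cre transgene, both donor marrows were transplanted into lethally irradiated CD45.1/2 hosts, and both sets of hosts received poly(I:C), a double-stranded RNA analogue that activates the interferon-responsive Mx1 promoter. Each library was prepared with a SMARTer Ultra Low kit from 200 cells sorted as CD45.2+ LSK CD150+ CD48- CD34- at 8 weeks after the last injection.

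The Mx1 promoter is not specific to stem cells, so recombination in other haematopoietic cells of the graft is part of the model. Host cells of a CD45.1/2 mouse also carry CD45.2, and the sources used here do not say whether CD45.1+ cells were removed by the gate. The same holds for the age of the animals and for whether several recipients were pooled into a library, so the p-values below measure the spread between these libraries.

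Heat shock proteins hold unfolded polypeptides, and use ATP to fold them or pass them on. In the cytosol the HSP70 and HSP90 machines and the ring-shaped chaperonin TRiC do this work, and the transcription factor HSF1 switches their genes on under proteotoxic stress. In the ER, BiP, GRP94, the lectins calnexin and calreticulin and the protein disulfide isomerases fold secretory and membrane proteins. When they are overloaded, the sensors IRE1, PERK and ATF6 start the unfolded protein response, which raises ER chaperones through XBP1 and ATF6 and stress factors through ATF4 and CHOP. Haematopoietic stem cells are known for a low rate of protein synthesis and for their sensitivity to misfolded protein.

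Depth differed with genotype. IMP1 libraries held 61916908, 67083116 and 50220629 counts and Control libraries held 27338450, 26326164 and 25749898, so depth and genotype cannot be told apart. Igf2bp1 had 1870, 2084 and 2016 counts in IMP1 and 0, 0 and 1 in Control libraries (log2 fold change 11.01, SE 0.73, adjusted p = 0.00399). The 6 genes of the sorting gate summed to 1378 to 1598 CPM (counts per 1e6 of the library, after TMM scaling) in IMP1 and 1382 to 1581 CPM in Control libraries. Cd48, which the gate selects against, reached 26.8 CPM in IMP1 library 1 and 18.1 CPM in Control library 1, and lay between 1.86 and 7.86 CPM in the other 4 libraries. Cd34, also selected against, had 213, 141 and 151 CPM in IMP1 and 263, 317 and 270.0 CPM in Control libraries, without overlap (log2 fold change −0.75, adjusted p = 0.110). Several marker lists of cell identity differed with genotype or stood apart in a library. An 8-gene HSC list summed to 1473 to 1660 CPM in IMP1 and 984 to 1078 CPM in Control libraries. Erythroid markers summed to 305, 69.6 and 85.5 CPM in IMP1 libraries 1, 2 and 3 and 35.3 to 42.8 CPM in Control libraries, with 1 of 6, the beta-globin gene Hbb-b1, past the threshold. Neutrophil markers summed to 651, 290.2 and 21.8 CPM in IMP1 and 15.7 to 51.1 CPM in Control libraries, and mast cell markers to 2.45 to 14.7 CPM in IMP1 and 36.0 to 43.8 CPM in Control libraries. The neutrophil sum rests on S100a8, S100a9, Ngp and Ltf, while Mpo had 0.0314, 0 and 0 CPM in IMP1 and 25.3, 7.40 and 0.360 CPM in Control libraries, and Elane and Ctsg were highest in Control library 1. Of the mast cell markers, Fcer1a had 2.37, 0 and 0 CPM in IMP1 and 34.7, 24.3 and 21.3 CPM in Control libraries. Cpa3 overlapped, at 0.377 to 14.7 CPM in IMP1 and 7.74 to 14.7 CPM in Control libraries. Gzmb was at 0 throughout, and Mcpt8 was seen in Control library 1 only. T cell markers stayed at or below 8.25 CPM in every library, and B cell markers summed to 0.110, 31.1 and 0 CPM in IMP1 libraries 1, 2 and 3 and at most 0.0376 CPM in Control libraries, with Ms4a1 and Pax5 at 0 throughout. The part of these differences in the chaperone values below was not tested.

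Promoter windows from RefSeq (GRCm38.p6, 250 bases before to 50 after each start) were matched to 32 of the 38 genes. The ER stress element, CCAAT and CCACG separated by 9 bases on either strand, is the binding element of ATF6. It was found in the windows of 6 members, Calr, Canx, Dnajc3, Hsp90b1, Hspa5 and Pdia6, and in 0.119% of all 32851 windows. All 6 encode proteins of the ER lumen or membrane. The windows of BiP (Hspa5) and calreticulin (Calr) are shown because both are among the members with the lowest p. Those of calnexin (Canx) and GRP94 (Hsp90b1) are shown because they hold the same element with log2 fold changes of 0.22 and −0.01. Dnajc3 and Pdia6, which also hold the element and are not shown, had log2 fold changes of −0.39 and −0.15. Capitals mark the element, and Hsp90b1 holds it 2 times.
Calr, chr8:84847055-84847113, minus strand: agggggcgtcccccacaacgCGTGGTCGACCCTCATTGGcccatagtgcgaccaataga
Hspa5, chr2:34772005-34772063, plus strand: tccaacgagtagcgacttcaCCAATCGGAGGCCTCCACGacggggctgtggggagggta
Canx, chr11:50325780-50325838, minus strand: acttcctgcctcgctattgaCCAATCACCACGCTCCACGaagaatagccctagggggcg
Hsp90b1, first copy, chr10:86705618-86705676, minus strand: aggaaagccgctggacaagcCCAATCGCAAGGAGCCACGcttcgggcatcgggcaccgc
Hsp90b1, second copy, chr10:86705513-86705571, minus strand: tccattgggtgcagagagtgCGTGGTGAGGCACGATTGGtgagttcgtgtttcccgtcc
The elements of Calr, Hspa5 and Canx began 162, 65 and 145 bases before the annotated start, and those of Hsp90b1 began 212 and 107 bases before it.

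HSF1 binds repeats of the block GAA in alternating orientation. As a description of such sites, the palindromes GAANNTTC and TTCNNGAA were searched, which can overlap each other. Either was present in 15.1% of all windows and in those of 10 members, Bag3, Cct2, Cct5, Dnaja1, Eif2ak3, Hspa1b, Hspb1, Hspd1, Hspe1 and Hsph1. Separately, GAANNTTC was in 7.86% of windows and TTCNNGAA in 8.52%. The windows below are shown because Dnaja1 is among the members with the lowest p, because Hspd1 and Hspe1 share 1 divergent promoter, and because Hspb1 was nearly silent. Capitals mark the matches, of which the Hspe1 window holds 3 that overlap and the Hspb1 window 2.
Dnaja1, chr4:40722324-40722371, plus strand: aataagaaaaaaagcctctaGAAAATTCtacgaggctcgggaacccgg
Hspe1, chr1:55088039-55088096, plus strand: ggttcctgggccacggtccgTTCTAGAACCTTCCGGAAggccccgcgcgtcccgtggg
Hspb1, chr5:135887782-135887849, plus strand: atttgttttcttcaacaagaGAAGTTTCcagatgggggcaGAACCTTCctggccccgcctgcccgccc
The motif TGATGNAA, the core of CHOP and ATF4 composite sites, was in 3.97% of all windows and in that of 1 member, Herpud1. TGACGTGG, an ATF6 and XBP1 motif, was in 0.676% of windows and in 0 members.

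Between genotypes the set showed small differences, and 0 members passed the test. Of 38 members 37 passed the filter on low counts, and 0 of these 37 had an adjusted p under 0.05 in edgeR's quasi-likelihood test (adjusted p 0.169 to 0.995), where 0.211% of the 12807 genes tested did, 0.141% lower and 0.0703% higher. At an unadjusted p under 0.05, 6 members were lower in IMP1 cells, or 16.2%, where 7.63% of all genes tested were. These were Calr, Dnaja1, Hspa5, Dnajb1, Hspa8 and Herpud1. In the other direction 0 members had such a p in this fit, where 6.67% of all genes did. Edem1, Xbp1, Pdia3 or Hspa4 were higher in IMP1 cells at such a p in some alternative settings, named in the last section. DESeq2 called 2 members, Calr (adjusted p = 0.00993) and Dnaja1 (adjusted p = 0.0168), both lower in IMP1 cells, where it called 3.05% of all genes lower and 2.37% higher, and limma-voom called 0 members.

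The values of all IMP1 libraries lay below those of all Control libraries for 5 tested members (13.5%, where 11.1% of all genes tested did so), namely Calr, Dnaja1, Hspa5, Dnajb1 and Herpud1. They lay above for 1 tested member, Xbp1, where 10.7% of all genes did. The log2 fold change, IMP1 over Control, was negative for 23 of the 37 tested members (62.2%), where it was negative for 47.8% of all genes tested. With no scaling beyond library totals it was negative for 16 of 37 members and 5234 of 12807 genes, and the median of all genes tested was then 0.12. With upper-quartile scaling it was negative for 18 of 37 members and 5842 of 12807 genes. In the main fit it was negative for 6127 of 12807 genes, so the excess among the members was smaller under these scalings. The median of the main fit was −0.02 for the members and 0.03 for all genes tested. Cytosolic heat shock members had a median of −0.26 (10 tested), the 14 ER chaperones, disulfide isomerases and degradation factors −0.09, and the 6 sensors and transcription factors of the unfolded protein response 0.24 (0.13 without Control library 3). Leaving out IMP1 library 2 left 2 members with an unadjusted p under 0.05, Calr and Dnaja1, and leaving out Control library 3 left 3, Calr, Dnaja1 and Cct5. Over the 6 fits with 1 library left out, Calr and Dnaja1 had such a p in 6, Hspa5, Hspa8 and Dnajb1 in 2 each and Herpud1 in 1. In bulk libraries, fewer cells of a type and less RNA per cell cannot be told apart.

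**Figure D1:**
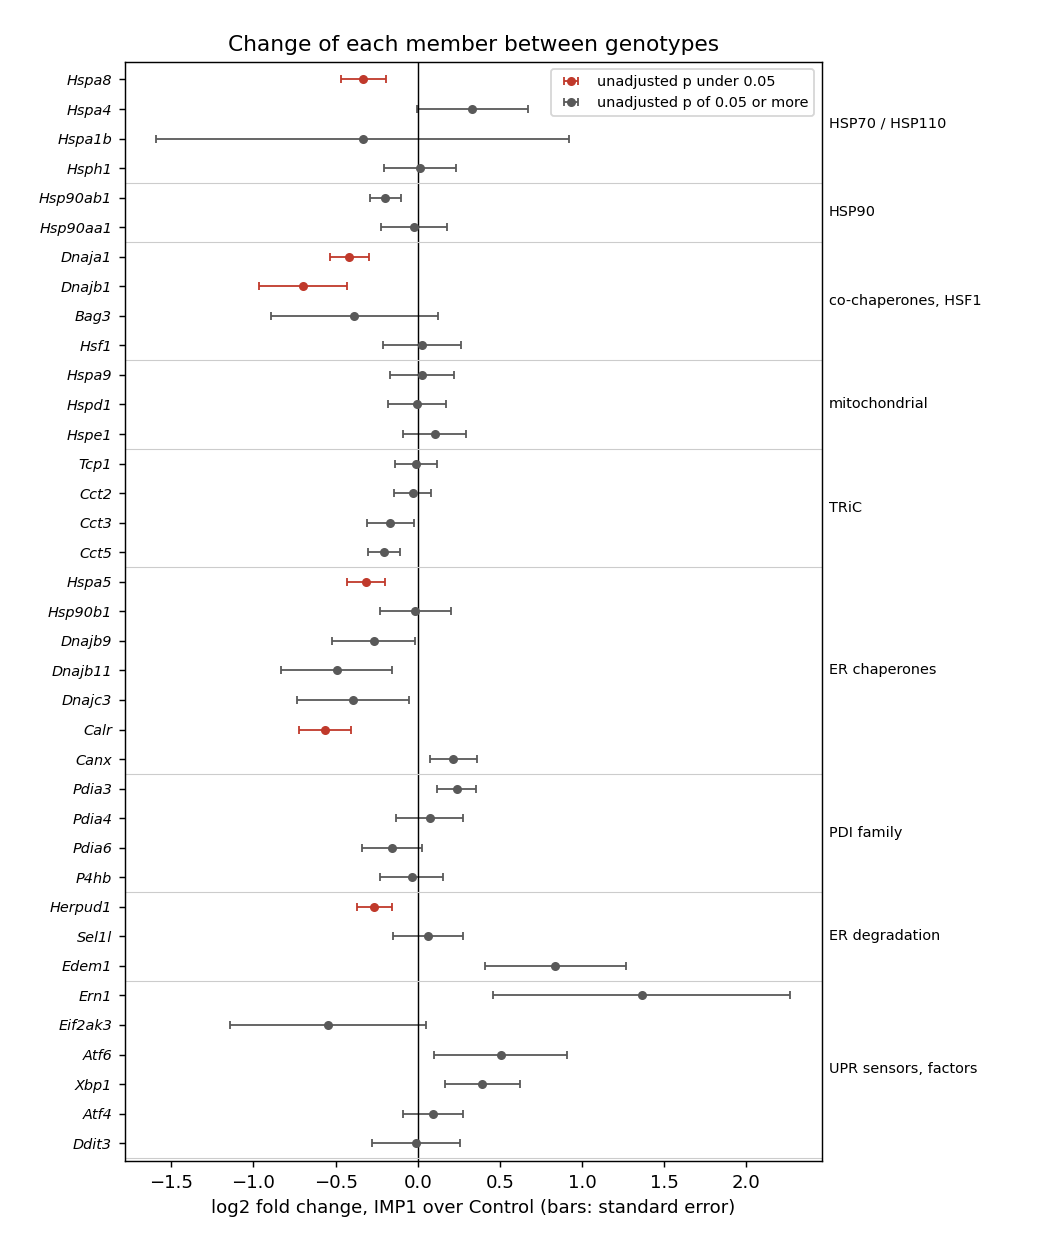
Log2 fold change of each of the 37 tested members, IMP1 over Control, with bars for the standard error (n = 3 libraries each) and members ordered by role. Values run from −0.70 for Dnajb1 to 1.36 for Ern1, and 23 of the 37 lie below 0.

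Levels spanned several orders of magnitude. Per kilobase of the longest annotated protein-coding transcript, Hspa8 stood at 2674 CPM over the 6 libraries, rank 21 of the 12347 tested genes with a length. It was followed by Hsp90ab1 (1013 CPM per kilobase, rank 94), Cct5 (497, rank 150), Hsp90aa1 (335, rank 237) and Canx (322, rank 248). The lowest tested members were Hspa1b at 0.511 and Ern1 at 0.490 CPM per kilobase. Of the 37 tested members, 31 stood above the median of all tested genes with a length, which was 7.58 CPM per kilobase. The constitutive chaperones were thus among the abundant transcripts of these cells. The stress-inducible forms Hspa1b and Hspb1 stood at or below 3.25 and 0.694 CPM in every library, while Hsp90aa1, also inducible, ranked 237. Together the 38 genes took 2.13%, 1.79% and 1.77% of the counts in IMP1 libraries 1, 2 and 3, against 2.28%, 1.77% and 1.97% in Control libraries 1, 2 and 3, and these ranges overlapped.

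**Figure D2:**
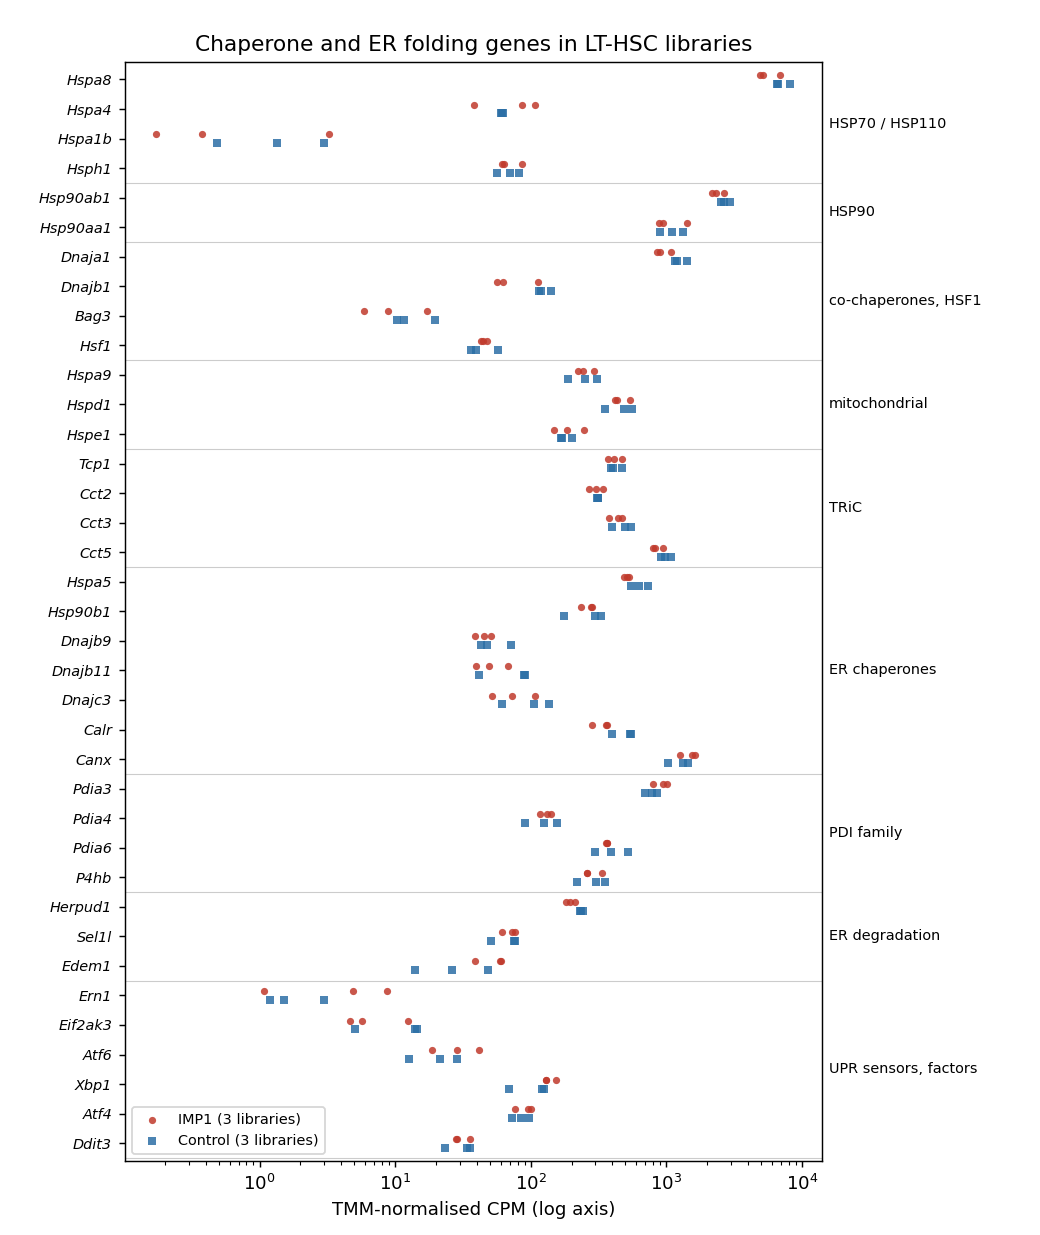
TMM-normalised CPM (log axis) of each of the 37 tested members in each of the 3 IMP1 and 3 Control libraries, with members ordered by role. Hspa8 lies highest, between 4929.9 and 8169 CPM. Hspa1b holds the lowest value drawn, 0.173 CPM in IMP1 library 3. Hspb1, which was not tested, is not drawn.

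The HSP70 and HSP110 members were led by Hspa8, which encodes the constitutive HSC70. Hspa8 had 6887, 5184 and 4929.9 CPM in IMP1 libraries 1, 2 and 3, against 8169, 6552 and 6684 CPM in Control libraries 1, 2 and 3. IMP1 library 1 was above Control libraries 2 and 3, so the groups overlapped. The level averaged 5667 ± 1064 CPM in IMP1 and 7135 ± 898 CPM in Control cells (SD, n = 3 each), 20.6% lower in IMP1 by the fitted fold (log2 fold change −0.33, SE 0.14, adjusted p = 0.320). Hspa4, an HSP110-type nucleotide exchange factor, ranged from 38.2 to 107 CPM in IMP1 and from 59.9 to 62.9 CPM in Control cells (log2 fold change 0.33, adjusted p = 0.718). Its IMP1 libraries differed 2.80-fold among themselves and its Control libraries 1.05-fold, and its log2 fold change was 0.024 without IMP1 library 2 and 0.66 without IMP1 library 3. Hsph1, the other HSP110 gene, lay between 61.0 and 86.1 CPM in IMP1 and between 56.6 and 81.7 CPM in Control cells (log2 fold change 0.01, adjusted p = 0.987).

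Hspa1b, the stress-inducible HSP70, had 207, 26 and 9 counts in IMP1 libraries 1, 2 and 3, against 13, 34 and 74 counts in Control libraries 1, 2 and 3. Libraries of the same genotype differed 18.7-fold in IMP1 and 6.07-fold in Control cells, and the groups overlapped (log2 fold change −0.33, SE 1.25, adjusted p = 0.934). Reads of the near-identical Hspa1a may be shared with it, as may reads of processed copies with Hspa8, the HSP90 genes, Hspd1 and Hspe1, since the sources used here do not say how reads matching several genes were handled.

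Among the HSP90 members, Hsp90ab1 encodes the constitutive isoform and Hsp90aa1 the inducible isoform. Hsp90ab1 had 2645, 2177 and 2314 CPM in IMP1 libraries 1, 2 and 3, against 2965, 2554 and 2658 CPM in Control libraries 1, 2 and 3. The highest IMP1 value lay within the Control range. The log2 fold change was −0.20 (SE 0.09, adjusted p = 0.395). Hsp90aa1 had 1433, 887 and 949 CPM in IMP1 libraries, against 1323, 902 and 1094 CPM in Control libraries, which overlapped over nearly their whole range (log2 fold change −0.02, SE 0.20, adjusted p = 0.974).

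The J-domain co-chaperones Dnaja1 and Dnajb1, which deliver clients to HSP70 and stimulate its ATPase, were lower in every IMP1 library than in every Control library. Dnaja1 had 1086, 892 and 857 CPM in IMP1 libraries 1, 2 and 3, against 1414, 1199 and 1169 CPM in Control libraries 1, 2 and 3. Its level averaged 945 ± 123 CPM in IMP1 and 1261 ± 134 CPM in Control cells (SD, n = 3 each), 25.04% lower (log2 fold change −0.42, SE 0.12, adjusted p = 0.172). The difference kept its direction and an unadjusted p under 0.05 under all 17 alternative settings. Dnajb1 had 112, 62.9 and 56.5 CPM in IMP1 libraries, against 116, 118 and 142 CPM in Control libraries. IMP1 library 1 lay just under the lowest Control value, and the other 2 IMP1 libraries lay further below. The fitted level in IMP1 was 38.3% lower (log2 fold change −0.70, SE 0.27, adjusted p = 0.294).

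The groups overlapped for Bag3 and Hsf1. The HSP70 co-chaperone Bag3 lay between 5.93 and 17.2 CPM in IMP1 and between 10.3 and 19.7 CPM in Control cells (log2 fold change −0.39, SE 0.51, adjusted p = 0.794). Hsf1, the transcription factor of the heat shock response, lay between 43.1 and 47.9 CPM in IMP1 and between 36.3 and 57.7 CPM in Control cells (log2 fold change 0.02, SE 0.24, adjusted p = 0.977). Its mRNA level does not measure its activity, which is controlled after translation. The small heat shock protein gene Hspb1 did not pass the filter and was not tested. It had 5, 8 and 36 counts in IMP1 libraries 1, 2 and 3, against 1, 0 and 0 counts in Control libraries 1, 2 and 3. With the counts of each genotype pooled, the ratio was 20.4 with an exact 95% counting interval of 3.49 to 820.4. This interval leaves out the spread between libraries, and most IMP1 counts came from library 3.

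**Figure D3:**
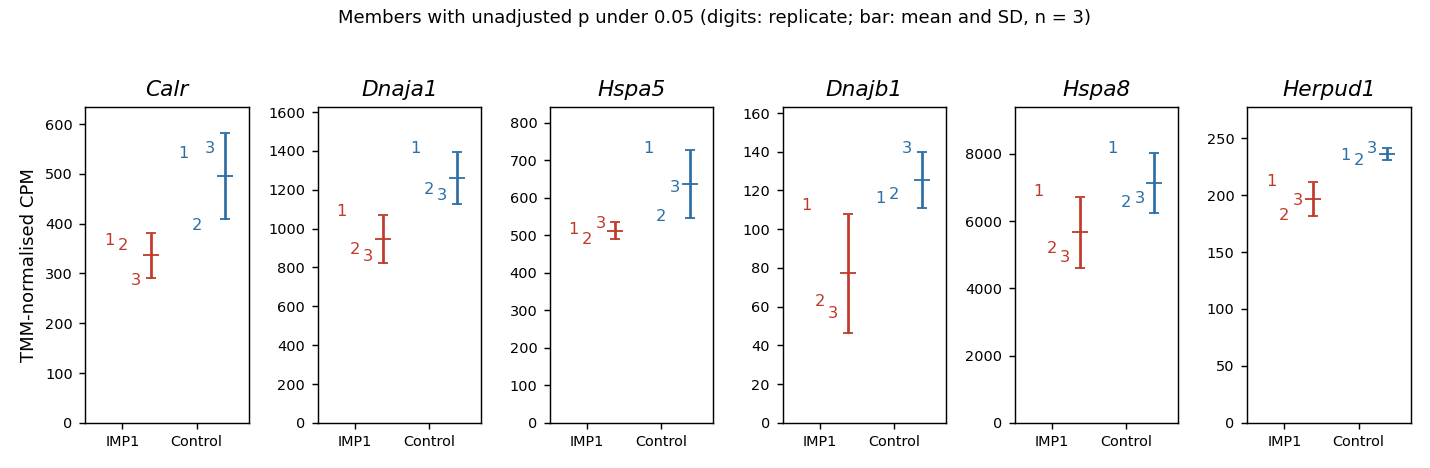
TMM-normalised CPM of the 6 members with an unadjusted p under 0.05, with IMP1 left of Control in each panel, digits for the replicate and bars for mean and SD (n = 3). The IMP1 values lie below all Control values for Calr, Dnaja1, Hspa5, Dnajb1 and Herpud1 and overlap them for Hspa8.

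The 3 mitochondrial chaperones differed little. Hspe1, the HSP10 lid of the mitochondrial chaperonin, had 246, 184 and 149 CPM in IMP1 libraries 1, 2 and 3, against 202, 167 and 169.6 CPM in Control libraries 1, 2 and 3 (log2 fold change 0.10, SE 0.19, adjusted p = 0.864). Hspd1, the HSP60 barrel, lay between 416 and 544 CPM in IMP1 and between 352 and 556 CPM in Control cells (log2 fold change −0.0041, adjusted p = 0.995). Hspa9, the mitochondrial HSP70 mortalin, lay between 222 and 295 CPM in IMP1 and between 187 and 311 CPM in Control cells (log2 fold change 0.03, adjusted p = 0.970). In all 3 genes the groups overlapped. Hspd1 and Hspe1 lie over one another in the annotation, and without strand information their shared reads cannot be assigned.

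All 4 TRiC subunits had a negative log2 fold change and 0 had an unadjusted p under 0.05, but the sign of Tcp1 and Cct2 depended on the setting, scaling and left-out libraries included. Cct3 and Cct5 were negative under all 17 alternatives. TRiC folds actin, tubulin and many WD-repeat proteins. Cct5 had 942, 801 and 825 CPM in IMP1 libraries 1, 2 and 3, against 1075, 973 and 911 CPM in Control libraries 1, 2 and 3. Only IMP1 library 1 lay within the Control range (log2 fold change −0.20, SE 0.10, adjusted p = 0.404). Cct3 was lower by a similar ratio with a wider spread (376 to 472 CPM in IMP1 and 395 to 551 CPM in Control cells, log2 fold change −0.17, adjusted p = 0.662). Tcp1, which overlaps other genes in the annotation, lay between 369.6 and 475 CPM in IMP1 and between 389 and 474 CPM in Control cells (log2 fold change −0.01). Cct2 lay between 269 and 339.8 CPM in IMP1 and between 307 and 314 CPM in Control cells (log2 fold change −0.03). With the trend on transcript length and GC content removed, Tcp1 and Cct2 had log2 fold changes of 0.048 and 0.059, and Cct5 and Cct3 of −0.062 and −0.046.

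ER chaperones held the member with the lowest p. Calr encodes calreticulin, a calcium-binding lectin that folds glycoproteins in the ER lumen and serves as a clearance signal when exposed at the cell surface. It had 367, 357 and 285 CPM in IMP1 libraries 1, 2 and 3, against 541, 397 and 551 CPM in Control libraries 1, 2 and 3. The IMP1 values lay below all Control values, with Control library 2 the nearest. Calr averaged 336 ± 44.4 CPM in IMP1 and 497 ± 86.3 CPM in Control cells (SD, n = 3 each), 32.3% lower (log2 fold change −0.56, SE 0.16, adjusted p = 0.169). Like Dnaja1, it kept its direction and an unadjusted p under 0.05 under all 17 alternative settings.

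Hspa5 encodes BiP, the HSP70 of the ER and the keeper of the unfolded protein sensors. Hspa5 had 516, 488 and 533 CPM in IMP1 libraries 1, 2 and 3, against 733, 551 and 628 CPM in Control libraries 1, 2 and 3. The groups did not overlap, although IMP1 library 3 and Control library 2 were close. The averages were 512 ± 22.6 CPM in IMP1 and 637 ± 91.2 CPM in Control cells (SD, n = 3 each), 19.7% lower (log2 fold change −0.32, SE 0.12, adjusted p = 0.280). Rabepk overlaps Hspa5 in the annotation, so the counts of the 2 genes may be shared in part.

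Calnexin, the membrane-bound partner of calreticulin, had a log2 fold change above 0. Canx had 1267, 1556 and 1617 CPM in IMP1 libraries 1, 2 and 3, against 1337, 1028 and 1459 CPM in Control libraries 1, 2 and 3. The groups overlapped (log2 fold change 0.22, SE 0.14, adjusted p = 0.554). Hsp90b1, which encodes the ER HSP90 GRP94, lay between 235 and 281 CPM in IMP1 and between 177 and 330.2 CPM in Control cells (log2 fold change −0.01, adjusted p = 0.987). The ER J-proteins, which are partners of BiP, all had negative log2 fold changes and overlapping groups. Dnajb9 had a log2 fold change of −0.27 (adjusted p = 0.692), Dnajb11 of −0.49 (adjusted p = 0.565) and Dnajc3 of −0.39 (adjusted p = 0.665). Their levels were between 38.8 and 107 CPM in IMP1 and between 41.2 and 136 CPM in Control cells.

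The protein disulfide isomerases form and rearrange disulfide bonds. Pdia3, the isomerase that works with calnexin and calreticulin, had 939, 1013 and 795 CPM in IMP1 libraries 1, 2 and 3, against 851, 697 and 784 CPM in Control libraries 1, 2 and 3. IMP1 library 3 lay within the Control range and the other 2 IMP1 libraries above it (log2 fold change 0.24, SE 0.12, adjusted p = 0.417). Pdia3 overlaps Catsper2 in the annotation. Pdia6 stood at 359 to 368 CPM in IMP1 and 300.1 to 521 CPM in Control cells, a 1.03-fold and a 1.74-fold span (log2 fold change −0.15, adjusted p = 0.767). Pdia4 lay between 117 and 142 CPM in IMP1 and between 90.0 and 155 CPM in Control cells (log2 fold change 0.07), and P4hb between 259 and 337 CPM in IMP1 and between 219 and 355 CPM in Control cells (log2 fold change −0.04). Calr, Canx and Pdia3 act in the same folding cycle and had log2 fold changes of −0.56, 0.22 and 0.24, of which 0 passed the test.

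The 3 members of ER-associated degradation, which returns misfolded proteins to the cytosol for the proteasome, did not share a direction. Herpud1, a scaffold of the retrotranslocation complex, had 212, 182 and 195 CPM in IMP1 libraries 1, 2 and 3, against 235, 231 and 241 CPM in Control libraries 1, 2 and 3. The groups did not overlap and the Control values were within 1.05-fold of each other. The averages were 196 ± 14.9 CPM in IMP1 and 236 ± 5.27 CPM in Control cells (SD, n = 3 each), 16.7% lower (log2 fold change −0.26, SE 0.11, adjusted p = 0.322). After removal of the trend on length and GC content the log2 fold change was −0.09. Edem1, a lectin that hands terminally misfolded glycoproteins to degradation, had 60.1, 38.8 and 59.2 CPM in IMP1 libraries, against 48.1, 14.1 and 26.2 CPM in Control libraries. IMP1 library 2 was below Control library 1, so the groups overlapped (log2 fold change 0.84, SE 0.43, adjusted p = 0.434). Sel1l, the adaptor of the HRD1 ligase, lay between 61.8 and 76.6 CPM in IMP1 and between 50.7 and 76.3 CPM in Control cells (log2 fold change 0.07, adjusted p = 0.925).

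The sensors of the unfolded protein response were low and variable. Ern1, which encodes IRE1, had 1.08, 4.85 and 8.77 CPM in IMP1 libraries 1, 2 and 3, against 3.01, 1.504 and 1.20 CPM in Control libraries 1, 2 and 3. IMP1 library 1 was the lowest of the 6, and the groups overlapped. Its log2 fold change of 1.36 was the highest of the 37 tested members and had an SE of 0.90 (adjusted p = 0.551). Eif2ak3, which encodes PERK, lay between 4.66 and 12.5 CPM in IMP1 and between 5.03 and 14.5 CPM in Control cells (log2 fold change −0.55, SE 0.60, adjusted p = 0.742). Atf6, whose protein is cleaved in the Golgi to a transcription factor, lay between 18.8 and 41.6 CPM in IMP1 and between 12.7 and 28.6 CPM in Control cells (log2 fold change 0.50, SE 0.41, adjusted p = 0.634).

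Among the transcription factors of the response, Xbp1 was higher in every IMP1 library than in every Control library. Xbp1 is spliced by IRE1 to its active form, and counts per gene do not separate the spliced from the unspliced mRNA. It had 154, 129.5 and 130.4 CPM in IMP1 libraries 1, 2 and 3, against 124, 122 and 69.4 CPM in Control libraries 1, 2 and 3. Control libraries 1 and 2 were close to the IMP1 values and Control library 3 stood apart below them (log2 fold change 0.39, SE 0.23, adjusted p = 0.4997). After removal of the trend on length and GC content it was 0.55, with an unadjusted p under 0.05, and without Control library 3 it was 0.16. Xbp1 is also a plasma cell marker. The 7-gene plasma cell list summed to 164, 144 and 145 CPM in IMP1 libraries and 128, 122 and 72.8 CPM in Control libraries, mostly Xbp1 itself. Its other 6 genes summed to 9.73, 14.7 and 14.2 CPM in IMP1 libraries and 3.46, 0.712 and 3.44 CPM in Control libraries, also without overlap, with Irf4 at 0 in all 3 IMP1 libraries and Mzb1 and Derl3 at 0 in all 3 Control libraries. The part of such cells in the Xbp1 values was not tested. Atf4, the effector of PERK, lay between 76.7 and 99.97 CPM in IMP1 and between 72.6 and 97.7 CPM in Control cells (log2 fold change 0.10, adjusted p = 0.866). Ddit3, which encodes the pro-apoptotic factor CHOP, lay between 27.9 and 35.7 CPM in IMP1 and between 23.3 and 35.6 CPM in Control cells (log2 fold change −0.01, adjusted p = 0.992). Atf4 is controlled mainly by translation, and Ddit3 lies over Mars1 and Mbd6 in the annotation.

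Among Control libraries, the ER members shared an order. Control library 2 had the lowest value of the 3 Control libraries for 14 of 14 ER members (7 chaperones, 4 disulfide isomerases and 3 degradation factors), where it was lowest for 36.2% of all genes tested. It was lowest for 10 of 19 tested genes of a wider ER folding list and for 7 of 16 of a wider degradation list. It was also lowest for 3 of 3 mitochondrial, 2 of 2 HSP90 and 3 of 4 TRiC members, so among the members the order was not limited to the ER. In the wider lists it was lowest for 3 of 12 mitochondrial, 9 of 26 cytosolic and 3 of 13 chaperonin and prefoldin genes. Of these 13 it was highest for 7. Among IMP1 libraries the 14 ER members had no such order, with 3, 8 and 3 of them lowest in libraries 1, 2 and 3. The 14 genes summed to 4714, 4825 and 4804 CPM in IMP1 libraries 1, 2 and 3, against 5454, 3900.0 and 5148 CPM in Control libraries 1, 2 and 3. The span among Control libraries was thus wider than that among IMP1 libraries, and the IMP1 sums lay inside it. Among single genes, Edem1 differed 3.41-fold, Dnajc3 2.21-fold, Dnajb11 2.19-fold and Hsp90b1 1.87-fold between Control libraries. Without Control library 2 the median log2 fold change of the ER members was −0.26, with 11 of 14 negative, and without Control library 1 it was 0.10, with 6 of 14 negative, against −0.09 and 9 of 14 over all libraries. Without any 1 of the other 4 libraries it lay between −0.16 and −0.01. In Control library 2 megakaryocyte markers summed to 276 CPM, against 682 and 369 CPM in Control libraries 1 and 3. They summed to 479, 378 and 255 CPM in IMP1 libraries 1, 2 and 3. The part of megakaryocyte cells in the ER values was not tested. Plasma cell markers other than Xbp1 were at or below 3.04 CPM in each Control library.

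A second pattern was most frequent among the cytosolic members. IMP1 library 1 had the highest value of the 3 IMP1 libraries for 9 of 10 tested cytosolic heat shock members and for 4 of 4 TRiC subunits, where it was highest for 32.9% of all genes tested. It was also highest for 7 of 14 ER and 2 of 3 mitochondrial members, and for 25 of the 37 tested members in all. Among the members the order was thus not limited to the cytosol. In the wider lists it was highest for 14 of 26 cytosolic, 6 of 13 chaperonin and prefoldin, 7 of 19 ER folding, 4 of 16 degradation and 1 of 12 mitochondrial genes. The exception among the cytosolic heat shock members was Hspa4, which was highest in IMP1 library 2. The 11 cytosolic members summed to 12405 CPM in IMP1 library 1 and to 9425 and 9258 CPM in IMP1 libraries 2 and 3, against 14180 CPM in Control library 1 and 11525 and 11928 CPM in Control libraries 2 and 3. Without IMP1 library 1 the cytosolic median was −0.39, with 9 of 10 negative, and without IMP1 library 3 it was −0.02, with 5 of 10 negative, against −0.26 and 7 of 10 over all libraries. Without IMP1 library 2 it was −0.06, and without any 1 Control library it lay between −0.19 and −0.16. IMP1 library 1 was also the one in which erythroid (305 CPM) and neutrophil markers (651 CPM) were highest, with the erythroid genes Car1 at 147 CPM and Rhd at 24.4 CPM. In the other 2 IMP1 libraries Rhd was at or below 0.274 CPM. The immediate-early genes, which respond to handling, were highest in IMP1 library 2 (247 CPM, with 76.5 and 86.0 CPM in the other 2 IMP1 libraries and 58.8 to 71.5 CPM in Control libraries). The part of other cells and of handling in the cytosolic values was not tested.

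**Figure D4:**
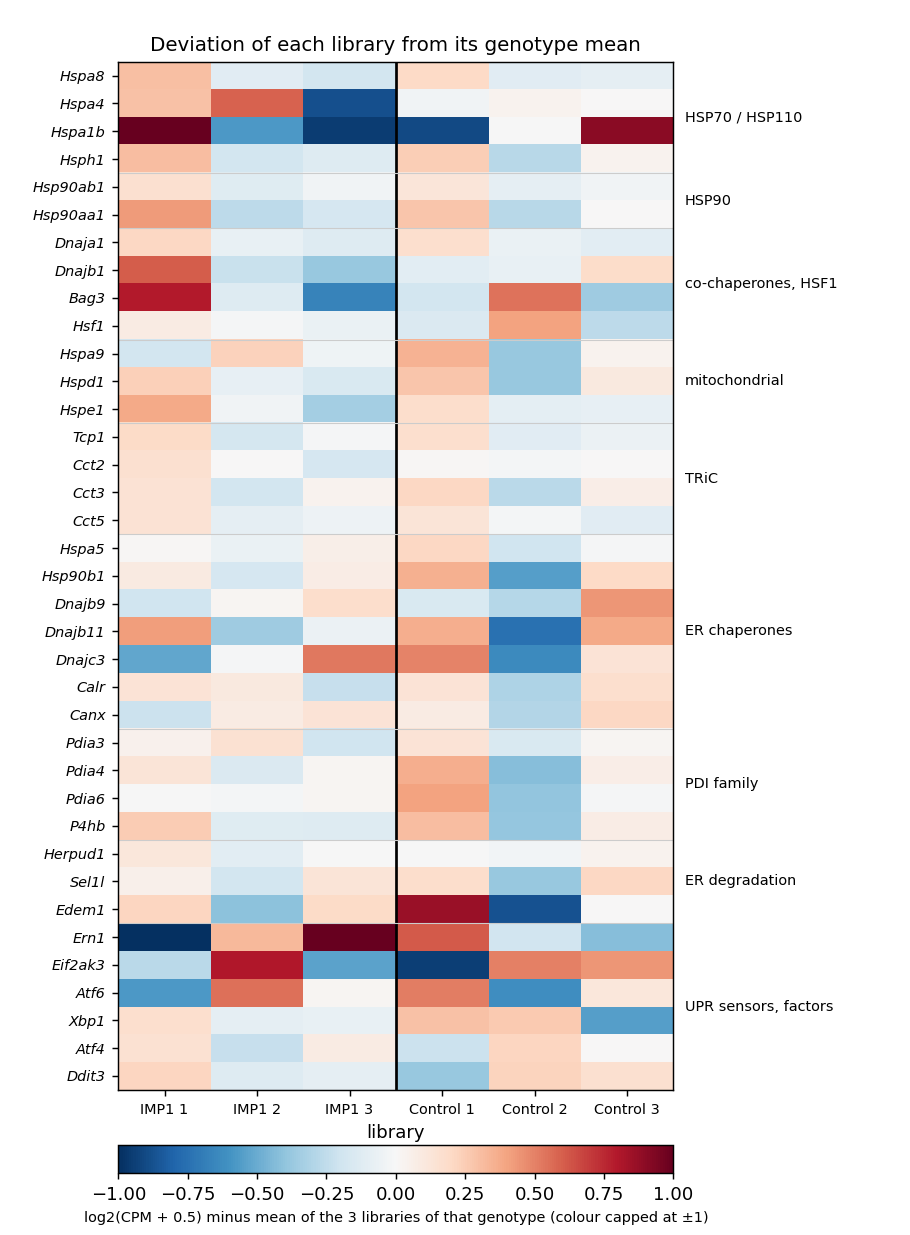
Deviation of each library from the mean of the 3 libraries of its genotype, as log2(CPM + 0.5), for each tested member ordered by role, with IMP1 libraries left and Control libraries right and the colour capped at ±1. Control library 2 is below its genotype mean across the ER block, and IMP1 library 1 is above it across most of the cytosolic and TRiC blocks.

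The same pathways were also examined through 109 further genes in 6 lists outside the member set, of which 104 were tested. Again 0 passed the threshold in edgeR's test, while DESeq2 called 3, all lower in IMP1 cells (Sdf2l1, Cct7 and Ppib), or 2.88%, close to its 3.05% over all genes. At an unadjusted p under 0.05, 11 (10.6%) were lower and 3 (2.88%) higher in IMP1 cells, where 7.63% and 6.67% of all genes were. A negative log2 fold change was found for 60 of 104 (57.7%, against 47.8% of all genes), with a median of −0.09. The 13 chaperonin, prefoldin and tubulin cofactor genes had a median of −0.18 with 10 of 13 negative and 4 lower at p under 0.05. The 19 tested ER folding genes had a median of −0.26 with 12 negative and 2 lower at p under 0.05. The 26 cytosolic genes had a median of −0.09 with 2 lower and 1 higher, and the 16 tested degradation genes −0.07 with 2 lower and 2 higher. The 12 mitochondrial genes had a median of −0.05 with 0 in either direction, and the 18 tested genes of the unfolded protein and integrated stress responses 0.18 with 1 lower.

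Sdf2l1, an ER protein that acts with BiP and Dnajb11, had the lowest p of these lists. Sdf2l1 had 27.5, 13.6 and 23.0 CPM in IMP1 libraries 1, 2 and 3, against 48.2, 49.2 and 57.3 CPM in Control libraries 1, 2 and 3. The groups were apart (log2 fold change −1.27, SE 0.30, adjusted p = 0.113), and DESeq2 gave an adjusted p of 0.00399. Ppib, the ER cyclophilin B, had 87.2, 87.4 and 88.6 CPM in IMP1 libraries, against 126, 119.6 and 123 CPM in Control libraries. Both groups were narrow and apart (log2 fold change −0.49, SE 0.13, adjusted p = 0.145, and 0.0343 in DESeq2). Cct7, a TRiC subunit outside the member set, had 609.7, 524 and 545 CPM in IMP1 libraries, against 899, 737 and 669 CPM in Control libraries, also without overlap (log2 fold change −0.46, SE 0.12, adjusted p = 0.161, and 0.0129 in DESeq2). Cct8, another subunit, averaged 684 ± 22.8 CPM in IMP1 and 789 ± 25.7 CPM in Control cells (log2 fold change −0.20, SE 0.08, adjusted p = 0.291).

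The other genes named by lowest p in their list were as follows. Cdc37, the HSP90 adaptor for kinases, averaged 124 ± 14.9 CPM in IMP1 and 162 ± 6.06 CPM in Control cells (log2 fold change −0.38, adjusted p = 0.262). Stip1, which bridges HSP70 and HSP90, averaged 250.5 ± 66.7 CPM in IMP1 and 348 ± 26.5 CPM in Control cells (log2 fold change −0.47, adjusted p = 0.295). Both are partners of the machines described above, and Cdc37 was lower in every IMP1 library than in every Control library. Among degradation genes the lectin Os9 averaged 36.3 ± 9.94 CPM in IMP1 and 61.7 ± 3.58 CPM in Control cells (log2 fold change −0.76, adjusted p = 0.218). It was lower in every IMP1 library than in every Control library. Eif2s1, the eIF2α subunit that PERK phosphorylates, averaged 379 ± 21.2 CPM in IMP1 and 452 ± 32.7 CPM in Control cells (log2 fold change −0.25, adjusted p = 0.300). The eIF2α kinase Eif2ak2 had a log2 fold change of −0.49 (adjusted p = 0.4002), and the mitochondrial protease genes Clpx and Clpp had 0.51 (adjusted p = 0.442) and −0.24 (adjusted p = 0.564).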

How the data were processed

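RNA of 3 IMP1 and 3 Control LT-HSC libraries was measured. The authors deposited raw counts per Entrez gene (21761 genes), per the file headers. TopHat2 2.0.10 and mm9 are named in the submitters' processing notes; the counting program, its strand setting and the annotation are not given in the sources used here. RefSeq (GRCm38.p6) gave symbols for 21615 identifiers, and the 146 others, with 0.0645% of counts, kept their number. Printed coordinates are those of the RefSeq promoter windows in GRCm38.p6, not of the mm9 alignment. Transcript lengths are those of the longest annotated protein-coding transcript, or of the longest of any type where a gene had none (GENCODE M21).

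Counts were tested as deposited in edgeR 4.0.16 under R 4.3.3 (quasi-likelihood F test), TMM scaling, filterByExpr and genotype as the only term, over all genes, with Benjamini-Hochberg adjustment and a threshold of 0.05. SE is |log2 fold change| over the root of F. On simulated counts of this comparison (12559 genes), recovery was 30% for a log2 change of 1 and 95% for a log2 change of 3. Changes were simulated only in genes above a minimum mean CPM, which Ern1 and Hspa1b did not reach. Of 134 calls in the simulation, 9 were on unchanged genes. Libraries of a genotype differed beyond sampling noise (chi-square per degree of freedom at least 61.0), so none was another library sequenced again. This comparison cannot tell whether libraries of a genotype came from different animals. The kit has no molecular identifiers, so amplified reads are not independent and intervals cover only counting error. The alternatives were DESeq2 1.42.0, limma-voom (limma 3.58.1), other scalings, filters and edgeR settings (legacy = FALSE), thinning to 25749898 counts, removal of a loess trend on length and GC content (span 0.4), the replicate number as a block and each library left out.

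The members, role groups, lists and rules were chosen with earlier results of these data known. Values in every library are given for members with an unadjusted p under 0.05, with groups that do not overlap, of the 5 highest levels per kilobase or with the largest absolute log2 fold change in their role group, and from each pathway list the 2 genes of lowest p are named. Hspb1 and single marker genes were named outside that rule, after their values were seen. A gene of the degradation list that the rule selects is not reported here.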

Additional observations from a re-analysis of the deposited data

How the results depend on the processing

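With 0 members called, the count of members past the threshold was 0 in every alternative other than DESeq2, which called 2 members and 3 genes of the pathway lists. The number of all genes called, 27 in the main fit, was 694 with DESeq2, 11 with limma-voom, 16 with no scaling beyond library totals, 103 with a stricter low-count filter, 49 with legacy = FALSE, 12 with the length and GC trend removed, 231 at an adjusted p under 0.10 and 0 to 2 with 1 library left out. Same-numbered libraries correlated at 0.0373, 0.0368 and 0.0180 in their deviations, and other pairs at −0.0582 to 0.0262. IMP1 libraries 1 and 2 correlated best with the same-numbered Control library, and IMP1 library 3 with Control library 1. Correlations this small cannot tell whether replicate numbers pair the samples. With the replicate number as a block 4 genes and 0 members were called, and with the block and the trend removed 0 genes. The median of the tested members ran from −0.15 to 0.03 with 1 library left out. Members with an unadjusted p under 0.05 numbered 6 in the main fit, 3 with no scaling (Calr and Dnaja1 lower, Pdia3 higher) and 2 to 7 with 1 library left out. With the replicate block they numbered 8 (7 lower, Edem1 higher). Higher members at such a p were also Edem1 with DESeq2, Xbp1 with the trend removed, and Edem1 and Xbp1 with block and trend removal. Without Control library 1 they were Edem1 and Pdia3, and without IMP1 library 3 Hspa4 and Pdia3.

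Over 628 alternative values of single members, 554 kept their sign and side of the threshold, 2 passed it (Calr and Dnaja1 in DESeq2) and 72 changed sign, in 16 members. The other 21 kept 1 sign throughout. With limma-voom Hspd1 was 0.013, Hsp90b1 0.021 and Ddit3 0.013. With no scaling Hsp90aa1 was 0.069, Hspd1 0.087, Tcp1 0.081, Cct2 0.061, Hsp90b1 0.076, P4hb 0.056 and Ddit3 0.084. With upper-quartile scaling Hsp90aa1 was 0.0020, Hspd1 0.021, Tcp1 0.015, Hsp90b1 0.011 and Ddit3 0.018. With the stricter filter Hspd1 was 0.012, Tcp1 0.0058, Hsp90b1 0.0017 and Ddit3 0.0074. With the trend removed Hsph1 was −0.041, Hspd1 0.048, Tcp1 0.048, Cct2 0.059, P4hb 0.070, Sel1l −0.082 and Ddit3 0.23. With the replicate block Hspd1 was 0.011, Hsp90b1 0.030 and Ddit3 0.0037, and with block and trend removal Hsph1 was −0.040, Hspd1 0.066, Tcp1 0.047, Cct2 0.053, Hsp90b1 0.017, P4hb 0.088, Sel1l −0.064 and Ddit3 0.24. With 1 library left out the ranges were −2.52 to 0.46 for Hspa1b, −0.16 to 0.15 for Hsph1, −0.27 to 0.13 for Hsp90aa1, −0.10 to 0.26 for Hsf1, −0.14 to 0.21 for Hspa9, −0.17 to 0.14 for Hspd1, −0.11 to 0.26 for Hspe1, −0.11 to 0.079 for Tcp1, −0.12 to 0.049 for Cct2, −0.24 to 0.16 for Hsp90b1, −0.11 to 0.27 for Pdia4, −0.33 to 0.072 for Pdia6, −0.21 to 0.13 for P4hb, −0.10 to 0.16 for Sel1l, −0.0061 to 0.21 for Atf4 and −0.18 to 0.10 for Ddit3. The cause of these changes was not tested. Depth limits Hspb1 and Hspa1b, with at most 36 and 207 counts in a library.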
